A study of Oryza sativa with 12 samples.

Results

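The peduncle is the uppermost internode of the rice stem, and it carries the panicle. It lengthens at heading and pushes the panicle out of the flag leaf sheath. Its growth comes from an intercalary meristem at its base, from expansion of the cells left behind and from the laying down of new wall, and after heading the stem is known as a path and a store of sugar for the filling grain. The comparison described here is that of non-elongating peduncles (NP), taken a few days after heading, with elongating peduncles (EP), taken a few days before heading, in Pokkali, a tall *indica* rice cultivar. Plants of *Oryza sativa* were grown in an open field, with no treatment named in the labels. The tissue was labelled as the first internode, and total RNA was sequenced with a kit that keeps the strand. The series held 12 libraries in 4 groups, of which NP and EP of Pokkali made up 6, with 3 libraries per group. The other 6 libraries were NP and EP of Swarna, another *indica* cultivar, and Swarna values are given only beside the Pokkali genes they bear on.

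The deposited table gave 1 value per assembled gene and group, in FPKM (fragments scaled by transcript length and by the mapped fragments of the library), with the libraries of a group combined. No spread between libraries could be computed, so no value below has an error, and no difference has a test. The table gives no counts behind a value, and library totals were not used here. Of 53380 loci named singly in the table, 19126 genes reached 1 FPKM in at least 1 of the 4 groups and were compared. Of these, 17289 reached 1 FPKM in a Pokkali group, and the remaining 1837 were included because of their level in Swarna alone. Differences are given as the log2 ratio of NP over EP after adding 0.5 FPKM to each value, which understates the difference of genes with low levels, and a gene is counted as higher or lower in NP where that ratio was at least 2-fold. The whole peduncle was used, so fewer cells of a type and less RNA per cell cannot be told apart in any of these values.

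NP had 3040 genes at least 2-fold higher than EP, 15.9% of those compared, and 2827 genes at least 2-fold lower, 14.8%. The other 13259 genes did not reach 2-fold. At 8-fold or more, 348 genes were higher in NP and 471 were lower, so the lower side held more of the large ratios. The median log2 ratio was 0.05, with quartiles at 0.63 and −0.54. The FPKM columns summed to 502799.5 in NP and 419002.3 in EP, and dividing them by these sums lowered the median log2 ratio by 0.18 and left 39.1% of the genes past 2-fold as higher in NP, against 51.8% with the values as deposited. The balance between the 2 directions therefore depended on the scaling, and the lists below are read against the shares over all genes.

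**Figure D1:**
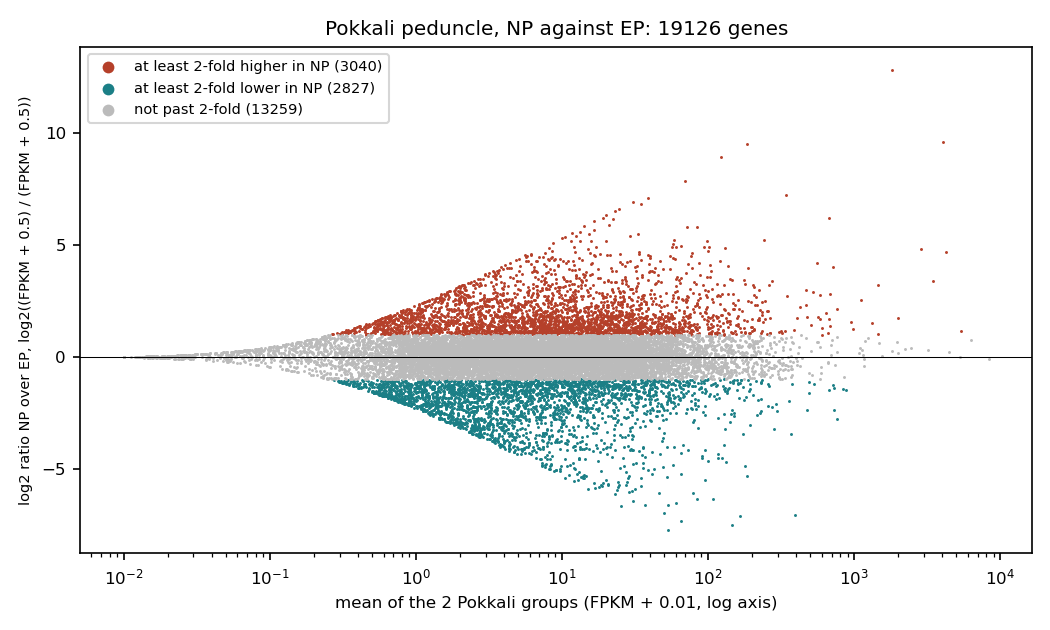
Each point is 1 of the 19126 genes. The horizontal axis is the mean FPKM of NP and EP on a log axis and the vertical axis is the log2 ratio of NP over EP, with 3040 genes higher in NP in red, 2827 genes lower in NP in teal and 13259 genes that did not reach 2-fold in grey; the narrow left end comes from the added 0.5 FPKM.

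The share of genes past 2-fold varied with level more than with position. Among the 141 genes at a mean of 300 FPKM or more in Pokkali, 29.1% were higher in NP and 10.6% were lower, whereas among the 3489 genes between 1 and 3 FPKM 15.5% were higher and 20.3% were lower. After division by the column sums the most abundant class still had more genes higher (22%) than lower (17.7%). In every other class more genes were then lower than higher. Between 100 and 300 FPKM 17.6% were higher and 19.8% were lower, and between 30 and 100 FPKM 14.8% were higher and 19.8% were lower. Transcript mass was also more concentrated in NP, where 569 genes held 50% of the summed FPKM, against 830 genes in EP, and where the 10 most abundant genes held 13% of it, against 8.71% in EP. Of these 10 genes, 5 were shared by NP and EP, and none of the genes in either set had an annotation in the tables used here. Over the 12 chromosomes the share past 2-fold ranged between 28.3% on chromosome 8 and 33.0% on chromosome 1. It was 46.5% among genes with an assembled span under 1000 bp and 22.9% among those with a span of 8000 bp or more. A gene whose neighbour at the preceding position was higher in NP was itself higher in 20.1% of 3040 cases, beside 15.9% of all such genes, and a gene whose neighbour was lower was itself lower in 17.8% of 2825 cases, beside 14.8%.

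Among genes at 10 FPKM or more in the higher group and 1 FPKM or more in the other, chosen after their values were seen, the largest ratio belonged to LOC_Os01g10400 on chromosome 1, which had 8096 FPKM in NP and 9.82 FPKM in EP. LOC_Os12g32290 followed with 678 FPKM in NP and 3.95 FPKM in EP. In the other direction LOC_Os02g41904 had 1.10 FPKM in NP and 289 FPKM in EP, and LOC_Os11g05290 had 1.94 FPKM in NP and 330.3 FPKM in EP. None of these loci was annotated in the tables used here, and all 4 differed in the same direction in Swarna. A further 55 genes were listed at 0 in EP and at 1 FPKM or more in NP, and 54 were listed at 0 in NP and at 1 FPKM or more in EP.

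Gene names, families and pathways were taken from the study's own tables of genes, which cover 1035 loci. These genes had been picked on the same libraries because they differed in at least 1 cultivar, so counts within the lists are no independent evidence of a direction, and a share above that over all genes was built in. What the lists show is which members made up each pathway in Pokkali, at what level, and which members stood against the rest.

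Genes of cell wall polysaccharide synthesis were mostly lower in NP. The list held 24 genes, of which 15 were at least 2-fold lower in NP, 2 were higher and 7 did not reach 2-fold, with a median log2 ratio of −1.26 against 0.05 over all genes. Cellulose synthases (CESA) make the cellulose microfibrils at the plasma membrane, and the cellulose synthase-like (CSL) families make backbones of other wall polysaccharides. Of the 8 *CESA* genes, 6 were lower in NP and none was higher. *CESA5* had 17.7 FPKM in NP and 104 FPKM in EP (log2 ratio −2.52), the largest difference of the family. *CESA1* had 94.1 FPKM in NP and 309 FPKM in EP (−1.71), *CESA8* had 72.0 FPKM in NP and 255 FPKM in EP (−1.82), and *CESA3*, the most abundant member, had 152 FPKM in NP and 367 FPKM in EP (−1.27). *CESA1*, *CESA3* and *CESA8* are known in rice as genes of the primary wall.

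The members known for the secondary wall differed in the size of their ratios. *CESA7* had 49.8 FPKM in NP and 169.5 FPKM in EP (−1.76). *CESA4* had 138 FPKM in NP and 264 FPKM in EP (−0.93), just short of 2-fold as deposited. After division by the column sums 7 of the 8 *CESA* genes were lower, *CESA4* among them. In NP *CESA4* was thus the second most abundant *CESA* gene, above *CESA1*. In Swarna *CESA4* had 5.94 FPKM in NP and 54.9 FPKM in EP, so its level in NP differed between the cultivars much more than its level in EP did. *CESA2*, the other member short of 2-fold as deposited, had 16.3 FPKM in NP and 21.6 FPKM in EP (−0.40).

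The CSL families differed in the size of their ratios. *CSLA1*, of the family that makes mannan backbones, had 0.949 FPKM in NP and 56.8 FPKM in EP (−5.30), the largest ratio of the wall list. Another 2 of the 6 *CSLA* genes were lower, *CSLA7* at 1.47 FPKM in NP and 8.17 FPKM in EP and *CSLA5* at 1.99 FPKM in NP and 5.43 FPKM in EP. With the added 0.5 FPKM *CSLA2* lay just outside the threshold (3.15 FPKM in NP, 6.77 FPKM in EP, −0.995). Dividing by the column sums raised the count of lower *CSLA* genes to 5. All 3 *CSLF* genes were lower. *CSLF6*, known in cereals as the main synthase of mixed-linkage glucan, had 44.5 FPKM in NP and 105 FPKM in EP (−1.22). *CSLF9* and *CSLF8*, which lie next to each other on chromosome 7 (21901505 to 21908493 and 21910216 to 21915284 in the rice genome annotation version 7), were at 0.286 and 1.12 FPKM in NP, against 6.46 and 8.31 FPKM in EP. Against the rest of the list, *CSLH1* had 56.8 FPKM in NP and 23.4 FPKM in EP (1.26) and *CSLE6* had 2.72 FPKM in NP and 0.0853 FPKM in EP (2.46). With the added 0.5 FPKM neither reached 2-fold in Swarna, where *CSLE6* had 0.338 FPKM in NP and 0.0317 FPKM in EP.

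**Figure D2:**
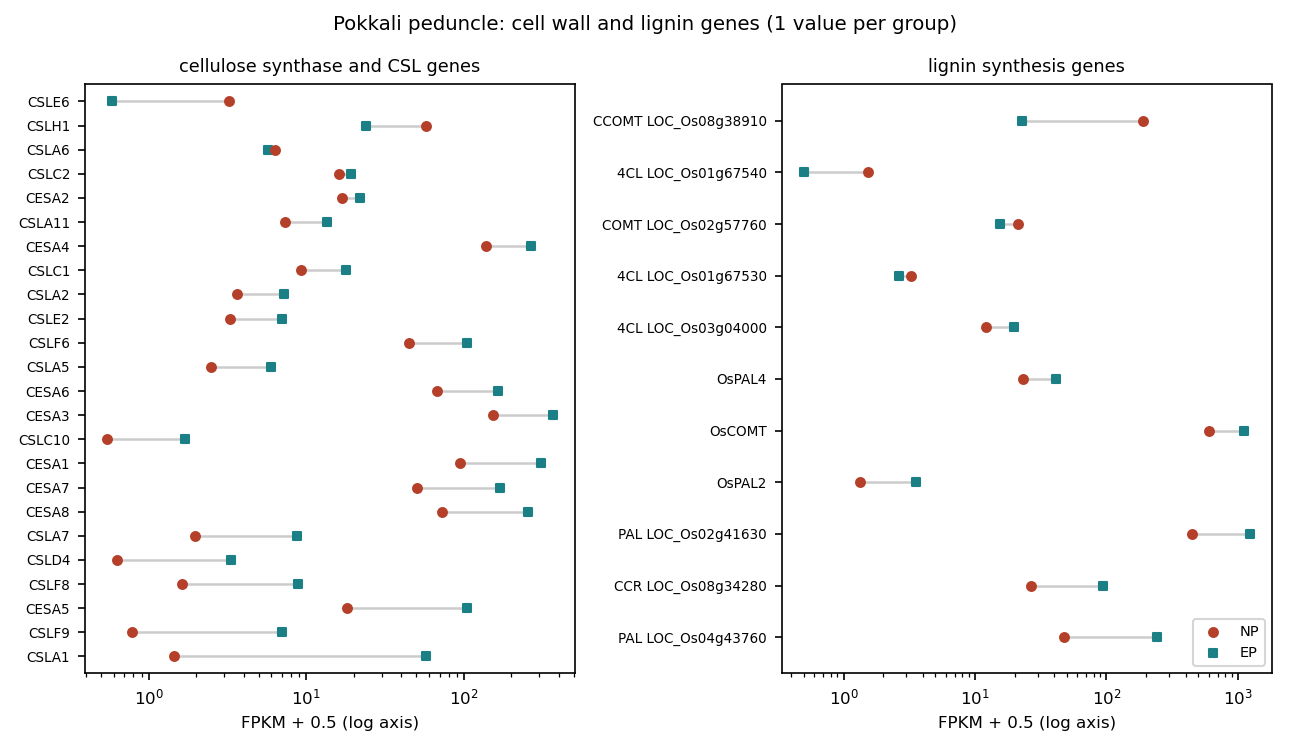
FPKM + 0.5 on a log axis for the 24 cellulose synthase and CSL genes (left) and the 11 lignin genes (right), with NP as red circles and EP as teal squares, 1 value per group and no error. Genes are ordered by their log2 ratio: *CSLE6* and *CSLH1* at the top have NP to the right of EP, and *CSLA1* at the bottom has the widest gap in the other direction.

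Lignin genes were split by their step in the pathway. Lignin is built from phenylalanine through phenylalanine ammonia-lyase (PAL), then 4-coumarate:CoA ligase (4CL), cinnamoyl-CoA reductase (CCR) and methyltransferases. Of 11 genes, 4 were at least 2-fold lower in NP and 2 were higher, with a median log2 ratio of −0.82. At the entry step 3 of 4 *PAL* genes were lower. The most abundant, LOC_Os02g41630, had 451 FPKM in NP and 1230.0 FPKM in EP (−1.45), and LOC_Os04g43760 had 46.9 FPKM in NP and 243 FPKM in EP (−2.36). *OsPAL4* had 22.7 FPKM in NP and 40.6 FPKM in EP (−0.82). The *CCR* gene LOC_Os08g34280 had 26.3 FPKM in NP and 93.2 FPKM in EP (−1.81). In the other direction the caffeoyl-CoA methyltransferase gene (*CCOMT*) LOC_Os08g38910 had 189.7 FPKM in NP and 22.3 FPKM in EP (3.06). The *4CL* gene LOC_Os01g67540 had 1.05 FPKM in NP and was listed at 0 in EP. *OsCOMT*, a caffeic acid methyltransferase gene, stayed among the most abundant genes of either list, with 606 FPKM in NP and 1109.8 FPKM in EP (−0.87).

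Carbohydrate genes leaned the other way. Of 42 genes, 22 were higher in NP, 6 were lower and 14 did not reach 2-fold, with a median log2 ratio of 1.03. The tilt was largest in starch degradation, where 7 of 9 genes were higher in NP and none was lower (median 1.74). Leaf and stem starch is opened by glucan, water dikinase, which phosphorylates the granule, and is then cut by beta-amylases to maltose or by phosphorylase to glucose 1-phosphate. *GWD1*, the dikinase gene, had 128 FPKM in NP and 31.9 FPKM in EP (1.99). The beta-amylase genes *BAM2* and *BAM3* had 196 and 199 FPKM in NP, against 13.2 and 30.01 FPKM in EP (3.84 and 2.71). The phosphorylase genes *PHO1* and *PHO2* had 209.6 and 154 FPKM in NP, against 74.0 and 44.5 FPKM in EP (1.5 and 1.78). *BAM5* (22.7 FPKM in NP, 16.8 FPKM in EP) and *Ramy2A*, an alpha-amylase gene (8.15 FPKM in NP, 4.46 FPKM in EP), did not reach 2-fold. Summed over the 9 genes, the level was 1193 FPKM in NP and 311 FPKM in EP.

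In Swarna both phosphorylase genes lay on the other side. *PHO1* had 14.4 FPKM in NP and 36.2 FPKM in EP there, and *PHO2* had 11.7 FPKM in NP and 23.9 FPKM in EP. *DPEI*, named for a disproportionating enzyme that works on short glucans, had 118 FPKM in NP and 49.3 FPKM in EP in Pokkali (1.25), and 14.0 FPKM in NP and 21.9 FPKM in EP in Swarna. *BAM2* and *BAM3* were higher in NP in both cultivars, at 139 and 576 FPKM in Swarna NP, against 9.55 and 36.9 FPKM in Swarna EP.

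Sucrose degradation was divided within families. Of 13 genes, 5 were higher in NP and 4 were lower (median log2 ratio 0.85). Sucrose synthase cleaves sucrose to UDP-glucose and fructose. *SUS1* had 194 FPKM in NP and 1332 FPKM in EP (−2.78), and *SUS6* had 14.0 FPKM in NP and 32.9 FPKM in EP (−1.20), whereas *SUS4* had 177 FPKM in NP and 58.4 FPKM in EP (1.59). In EP *SUS1* stood far above *SUS4*, and in NP the levels were similar. Among the cell wall invertases, which split sucrose outside the cell, *CIN2* (also *GIF1*, known in rice for grain filling) had 0.0159 FPKM in NP and 7.92 FPKM in EP (−4.03), and *CIN1* had 25.4 FPKM in NP and 6.48 FPKM in EP (1.89). The vacuolar invertases also differed, with *INV3* at 15.1 FPKM in NP and 51.7 FPKM in EP (−1.74) and *INV2* at 0.945 FPKM in NP and 0.0624 FPKM in EP (1.36). None of the 5 neutral invertase (*NIN*) genes was lower, and *NIN6* had 16 FPKM in NP and 4.82 FPKM in EP (1.63).

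Of 20 sugar transporter genes, 10 were past 2-fold towards NP and 2 were lower (median log2 ratio 0.99). *SUT1*, the sucrose symporter of phloem loading and one of the genes the study names as known for the peduncle, had 62.0 FPKM in NP and 18.7 FPKM in EP (1.70). All 3 monosaccharide transporter genes were higher: *MST6* had 122 FPKM in NP and 20.2 FPKM in EP (2.57), *MST4* had 12 FPKM in NP and 0.403 FPKM in EP (3.79), and *MST3* had 2.87 FPKM in NP and 0.0410 FPKM in EP (2.64). In Swarna NP *MST4* was at 1245 FPKM and *MST3* at 107 FPKM, so the Pokkali levels of these genes in NP were low beside those of Swarna although the direction was shared.

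SWEET proteins let sugars pass the membrane down their gradient. Of the 11 *SWEET* genes, 5 were higher in NP and 2 were lower. *SWEET16* had 116 FPKM in NP and 11.5 FPKM in EP (3.29), *SWEET14* had 4.01 FPKM in NP and 0.262 FPKM in EP (2.57), and *SWEET1b* had 1.16 FPKM in NP and was listed at 0 in EP. *SWEET15* had 8.31 FPKM in NP and 90.9 FPKM in EP (−3.38) and *SWEET11* had 0.342 FPKM in NP and 6.26 FPKM in EP (−3.01). The most abundant transporter gene in both groups was *SWEET4*, with 152 FPKM in NP and 133 FPKM in EP (0.19), followed by *TPT1*, a chloroplast triose phosphate translocator gene, with 136 FPKM in NP and 108 FPKM in EP (0.33). *SWEET15* was at 84.5 FPKM in NP and 77.9 FPKM in EP in Swarna, where it did not differ by 2-fold.

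**Figure D3:**
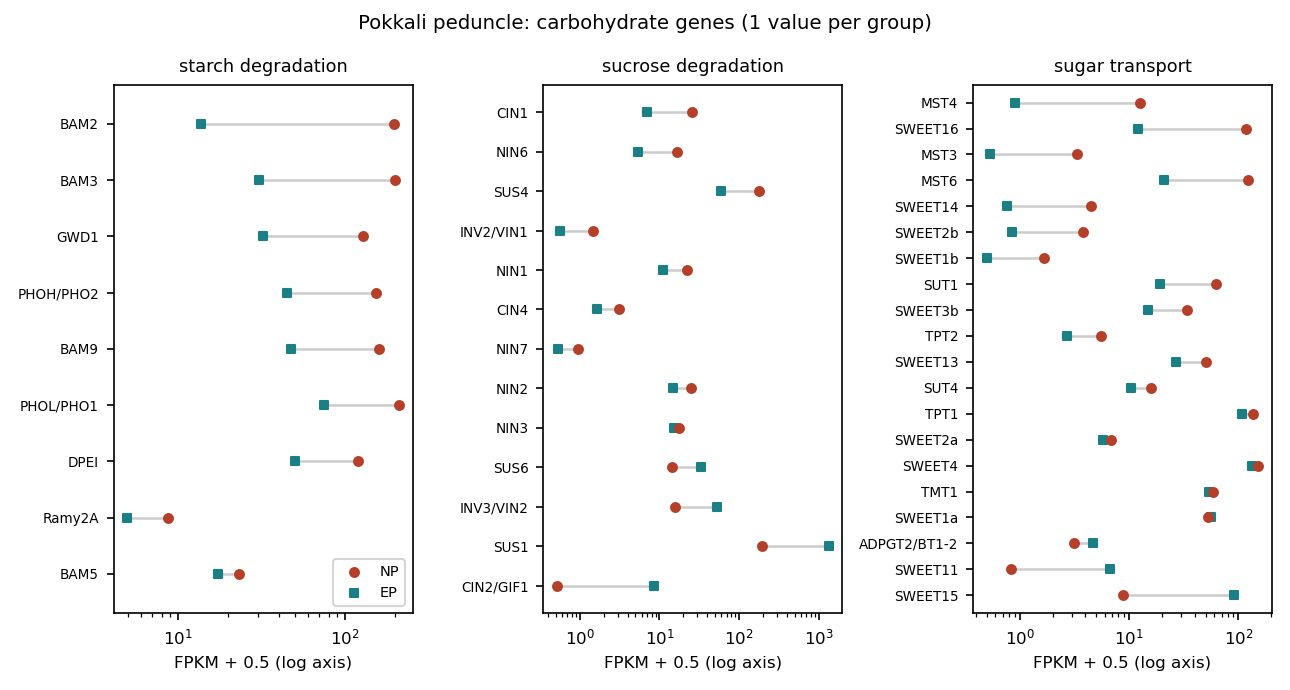
FPKM + 0.5 on a log axis for 9 starch degradation, 13 sucrose degradation and 20 sugar transport genes, NP as red circles and EP as teal squares, 1 value per group and no error. NP lies to the right of EP in all 9 starch genes, while *SUS1* and *CIN2* in the middle panel and *SWEET15* and *SWEET11* in the right panel have NP far to the left.

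Hormone genes as a whole were closer to balance, with 43 of 134 higher in NP, 33 lower and a median log2 ratio of 0.30, and the balance differed between hormones. Auxin and brassinosteroid are known to promote cell expansion and stem growth. Auxin signalling passes through Aux/IAA repressors, which are degraded when auxin binds its receptor, and through the ARF transcription factors that they hold back. Of 29 auxin signalling genes, 14 were at least 2-fold lower in NP and 2 were higher (median −0.95). By family, 9 of 17 *OsIAA* genes and 5 of 11 *OsARF* genes were lower. *OsIAA30* (LOC_Os12g40890, chromosome 12, 25310812 to 25316268) had 3.70 FPKM in NP and 67.4 FPKM in EP (−4.02). The neighbouring Aux/IAA gene LOC_Os12g40900 (25325549 to 25327567) had 1.45 FPKM in NP and 39.0 FPKM in EP (−4.34). The neighbouring genes *OsIAA11* and *OsIAA12* on chromosome 3 had 0.792 and 7.32 FPKM in NP, against 5.41 and 24.4 FPKM in EP.

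The most abundant auxin genes had smaller ratios. *OsIAA13* had 143 FPKM in NP and 318 FPKM in EP (−1.15) and *OsIAA17* had 98.3 FPKM in NP and 221 FPKM in EP (−1.16). Among the ARF genes *OsARF12* had 13.9 FPKM in NP and 50.1 FPKM in EP (−1.81). Only *OsIAA6* (2.84 FPKM in NP, 0.755 FPKM in EP, 1.41) and *OsARF4* (54.5 FPKM in NP, 26.7 FPKM in EP, 1.01) of the 29 signalling genes were past 2-fold on the higher side. Of 4 auxin synthesis genes 2 were higher in NP, 1 after division by the column sums, and 2 did not reach 2-fold. *OsTAA1;2*, a tryptophan aminotransferase gene, had 3.12 FPKM in NP and 0.377 FPKM in EP (2.04), and *OsASB1*, an anthranilate synthase subunit gene, had 32 FPKM in NP and 13.8 FPKM in EP (1.18), a difference under 2-fold after that division.

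Brassinosteroid synthesis genes, listed here for the sterol steps that feed it, were lower in NP for 4 of 7 members and higher for none (median −1.28). After division by the column sums 6 of 7 were lower (median −1.46). *OsDWF7* had 7.10 FPKM in NP and 91.6 FPKM in EP (−3.60), *OsSMT1*, a sterol methyltransferase gene, had 30.8 FPKM in NP and 131 FPKM in EP (−2.07), and *OsDWF5* had 11.3 FPKM in NP and 29.2 FPKM in EP (−1.33). *OsDIM* lay at the threshold, with 54.1 FPKM in NP and 108 FPKM in EP as deposited, and did not reach it with the added 0.5 FPKM. The receptor kinase gene *OsBRI1*, which the study names as known for internode elongation, had 8.44 FPKM in NP and 25.2 FPKM in EP (−1.52). The related *OsBRL1* (1.27 FPKM in NP, 2.57 FPKM in EP) and *OsBRL3* (7.73 FPKM in NP, 6.27 FPKM in EP) did not reach 2-fold with the added 0.5 FPKM.

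Gibberellin drives internode elongation by way of its receptor GID1, which removes DELLA proteins such as SLR1. Of 3 synthesis genes 2 were higher in NP and 1, *GA3ox2*, was lower. Of 5 inactivation genes 3 were higher, 2 after division by the column sums, and none was lower. *GA20ox1*, of the enzyme family that makes the direct precursors of active gibberellin, had 15.2 FPKM in NP and 0.119 FPKM in EP (4.66), and *GA20ox4* had 2.28 FPKM in NP and 0.0735 FPKM in EP (2.28). *GA3ox2*, of the last activating step and named by the study as known for the peduncle, was under 1 FPKM in all 4 groups, at 0.0490 FPKM in NP and 0.867 FPKM in EP. Among inactivation genes, *EUIL1* had 27.2 FPKM in NP and 2.01 FPKM in EP (3.46) and *GA2ox4* had 9.43 FPKM in NP and 1.92 FPKM in EP (2.04). The most abundant of them, *GA2ox3*, had 94.0 FPKM in NP and 64.0 FPKM in EP (0.55), whereas in Swarna it had 18.5 FPKM in NP and 112 FPKM in EP. *GID1* had 34.5 FPKM in NP and 8.68 FPKM in EP (1.93), while the DELLA gene *SLR1* had 20.2 FPKM in NP and 67.1 FPKM in EP (−1.70) and the DELLA-like *SLRL1* had 0.285 FPKM in NP and 4.62 FPKM in EP (−2.71). Receptor and repressor genes thus had opposite directions.

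Ethylene synthesis genes were divided by family member. ACC synthase (ACS) makes the precursor and ACC oxidase (ACO) converts it to ethylene. *OsACO3* had 7.10 FPKM in NP and 175 FPKM in EP (−4.53), *OsACO1*, also known for internode growth in rice, had 3.68 FPKM in NP and 79.1 FPKM in EP (−4.25), and *OsACO7* had 4.31 FPKM in NP and 25.4 FPKM in EP (−2.43). *OsACO2* had 81.7 FPKM in NP and 13.8 FPKM in EP (2.53). In EP *OsACO3* and *OsACO1* were the leading *ACO* genes and in NP *OsACO2* was, and the sum over the 5 listed *ACO* genes was 97.8 FPKM in NP and 295 FPKM in EP. *OsACS6* had 19.9 FPKM in NP and 5.56 FPKM in EP (1.75), and *OsACS1* had 3.08 FPKM in NP and 1.10 FPKM in EP (1.17). The study's anther or pollen list also names the *OsACS6* locus *SSG6* and annotates it as an aminotransferase gene. The study describes *SSG6* as a gene of starch grain form. None of the 3 ethylene signalling genes reached 2-fold.

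Cytokinin genes were mainly higher in NP. Both listed synthesis genes were, *OSIPT3* at 9.33 FPKM in NP and 2.84 FPKM in EP (1.56) and *OsIPT7* at 2.23 FPKM in NP and 0.0668 FPKM in EP (2.27). Of 14 signalling genes 9 were higher and 2 were lower (median 1.52), and all 9 were response regulators, the proteins at the end of the cytokinin phosphorelay. *OsRR9* (LOC_Os11g04720) had 44.3 FPKM in NP and 5.46 FPKM in EP (2.91) and *OsRR10* (LOC_Os12g04500) had 62.1 FPKM in NP and 8.87 FPKM in EP (2.74). These loci lie in the duplicated ends of chromosomes 11 and 12 and are nearly identical, so reads may be shared between them and their separate values are uncertain. *OsRR4* had 58.7 FPKM in NP and 15.9 FPKM in EP (1.85). Against the group, *OsRR13* had 9.86 FPKM in NP and 26.9 FPKM in EP (−1.40) and the phosphotransfer gene *OsHP4* had 3.83 FPKM in NP and 12.9 FPKM in EP (−1.63). The receptor genes *OsHK3* (44.9 FPKM in NP, 43.2 FPKM in EP) and *OsHK4* (7.82 FPKM in NP, 16 FPKM in EP) did not reach 2-fold with the added 0.5 FPKM.

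Jasmonate signalling had the highest median of the hormone groups. All 8 of its genes encode JAZ proteins, repressors that are degraded when jasmonate is sensed, and 7 were higher in NP (median log2 ratio 2.64). *OsJAZ5* had 64.9 FPKM in NP and 2.05 FPKM in EP (4.68), *OsJAZ4* had 114 FPKM in NP and 18.3 FPKM in EP (2.61), and *OsJAZ2* had 108 FPKM in NP and 16.6 FPKM in EP (2.66). *OsJAZ3*, the most abundant in both groups, had 139.7 FPKM in NP and 74.0 FPKM in EP (0.91) and was the exception. *OsJAZ6*, *OsJAZ1* and *OsJAZ5* follow each other within chromosome 3 (4232001 to 4250063), and all 3 were higher.

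Jasmonate synthesis showed less of this. Of 17 genes 4 were higher in NP (23.5%) and 2 were lower (11.8%), beside 15.9% and 14.8% over all genes (median 0.64). *OsAOC*, the single-copy allene oxide cyclase gene, had 73.0 FPKM in NP and 26.0 FPKM in EP (1.47), and *OsKAT*, of the beta-oxidation steps, had 146 FPKM in NP and 59.9 FPKM in EP (1.28). *OsJMT2*, named for a jasmonate methyltransferase, had 7.59 FPKM in NP and was listed at 0 in EP, while *OsJMT5* had 0.0582 FPKM in NP and 2.44 FPKM in EP (−2.40). The lipoxygenase genes *OsLOX2;1* and *OsLOX2;3* were under 1 FPKM in both Pokkali groups (0.0981 and 0.323 FPKM in NP, 0 and 0.0297 FPKM in EP), although Swarna NP had 11 and 33.6 FPKM.

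Of 24 abscisic acid genes 8 were higher in NP (33.3%) and 3 were lower, beside 15.9% and 14.8% over all genes. After division by the column sums 6 were higher and 4 lower. Of 18 signalling genes 5 were higher in NP and 2 were lower, with a median log2 ratio of 0.09 that became −0.07 after division by the column sums. *OsPLDα6*, a phospholipase D gene, had 5.14 FPKM in NP and 0.860 FPKM in EP (2.05), *OsbZIP9* had 32.5 FPKM in NP and 8.76 FPKM in EP (1.84), and the kinase gene *SAPK10* had 29.3 FPKM in NP and 9.82 FPKM in EP (1.53). Lower in NP were *OsPLDα3* (2.44 FPKM in NP, 5.67 FPKM in EP) and *OsPLDα11* (0.144 FPKM in NP, 0.980 FPKM in EP). Of the 5 *PP2C* genes, whose phosphatases hold the pathway off, only *OsPP2C4* was higher in NP, with 143 FPKM in NP and 66.5 FPKM in EP (1.09), and it did not reach 2-fold after division by the column sums (0.83). The synthesis gene LOC_Os03g44380, named *OsNCED1* in the hormone table and *OsNCED3* in the anther table of the study, had 85.7 FPKM in NP and 29.9 FPKM in EP (1.5). The catabolic hydroxylase gene *OsABA8OX1* was also higher, with 34.7 FPKM in NP and 9.04 FPKM in EP (1.88). *OsABA8OX3*, of the same enzyme family, had 5.92 FPKM in NP and 2.45 FPKM in EP (1.12), a difference under 2-fold after division by the column sums, and the synthesis gene *OsABA2* had 13.8 FPKM in NP and 35.3 FPKM in EP (−1.33).

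**Figure D4:**
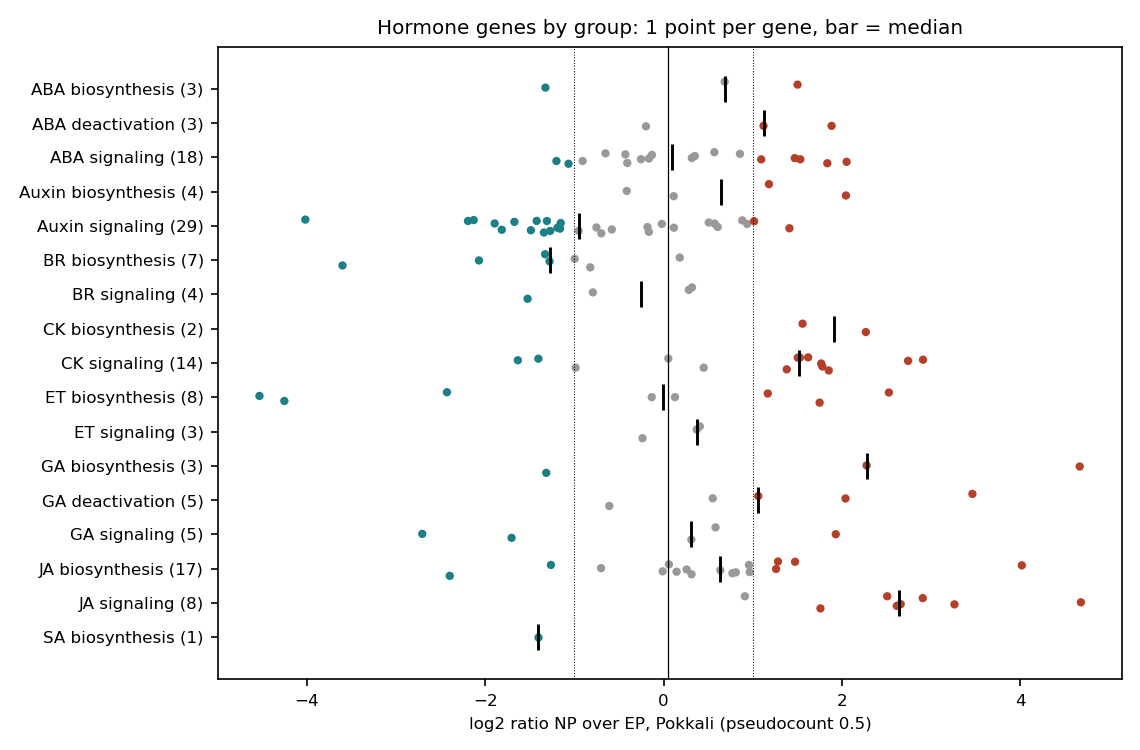
Log2 ratio of NP over EP for each of the 134 hormone gene entries, grouped by hormone and role with the number of genes in brackets. Points past 2-fold are red (higher in NP) or teal (lower in NP), black bars are group medians, dotted lines mark 2-fold and the solid line marks the median over all genes, 0.05; JA signalling and CK signalling lie mostly to the right, and auxin signalling and BR biosynthesis mostly to the left.

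Of 815 listed transcription factor genes 267 were higher in NP and 170 were lower, with a median log2 ratio of 0.38. After division by the column sums 213 were higher and 202 were lower. Of the 815 genes, 780 reached 1 FPKM in at least 1 of the 4 groups. The list held 71 families, and among the 44 families of 5 or more genes 22 had more members higher in NP and 17 had more members lower. These family counts are for the values as deposited, and the balance depended on the scaling. After division by the column sums some families changed side. *MADS* went from 2 higher and 0 lower to 0 higher and 1 lower. *C2C2-Dof* went from 5 higher and 4 lower to 2 and 4, and *bHLH* from 18 and 17 to 16 and 18. Some of these genes also belong to the hormone lists above, among them the ARF, Aux/IAA, Tify and ARR-B members.

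WRKY, NAC and AP2-EREBP proteins are large plant families with known roles in stress responses and ageing, and they held many of the genes that were higher in NP. Of 43 *WRKY* genes 26 were higher in NP and 2 were lower (median 1.41). LOC_Os09g25060 had 11.4 FPKM in NP and 0.0255 FPKM in EP (4.51), LOC_Os05g25770 had 16.7 FPKM in NP and 0.286 FPKM in EP (4.46), and LOC_Os01g60600 had 17.5 FPKM in NP and 0.361 FPKM in EP (4.39). All 3 were thus well under 1 FPKM in EP. Of 49 *NAC* genes 25 were higher and 7 were lower (median 1.05). LOC_Os07g37920 had 24.9 FPKM in NP and 0.0949 FPKM in EP (5.41), the largest ratio among the annotated genes at 10 FPKM or more, and LOC_Os03g21060 had 23.9 FPKM in NP and 0.304 FPKM in EP (4.93). In Swarna NP these 2 *NAC* genes were at 123 and 244 FPKM.

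Of 69 *AP2-EREBP* genes 39 were higher in NP and 8 were lower (median 1.23). LOC_Os08g36920 had 23.1 FPKM in NP and 0.690 FPKM in EP (4.31) and LOC_Os06g03670 had 74.0 FPKM in NP and 4.86 FPKM in EP (3.8). LOC_Os06g09390 of this family was the most abundant listed transcription factor gene in both groups, at 800.0 FPKM in NP and 399 FPKM in EP. Among 10 *Tify* genes, 8 of which are the JAZ genes above, 8 were higher and none was lower. The C2H2 zinc finger gene LOC_Os09g38610 had 39.5 FPKM in NP and 0.612 FPKM in EP (5.17). That family was mixed, with 10 of 32 genes higher (31.25%) and 7 lower (21.9%), beside 15.9% and 14.8% over all genes.

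Among the families with more members lower were *GRF*, *OFP*, *TCP* and *HMG*. Of 8 *GRF* (growth-regulating factor) genes 7 were lower in NP and none was higher (median −1.70). LOC_Os04g51190, the most abundant of them, had 4.66 FPKM in NP and 25.4 FPKM in EP (−2.32), and LOC_Os03g51970 had 0.10015 FPKM in NP and 3.95 FPKM in EP (−2.89). Of 6 *OFP* (ovate family protein) genes 5 were lower (median −1.95), with LOC_Os01g12690 at 0.228 FPKM in NP and 6.48 FPKM in EP (−3.26). These genes were of low level, and the 8 *GRF* genes summed to 6.51 FPKM in NP and 39.0 FPKM in EP. Of 13 *TCP* genes 7 were lower and 2 were higher. Of 6 *HMG* genes 4 were lower, with LOC_Os02g15810 at 0.214 FPKM in NP and 11.1 FPKM in EP (−4.03), and LOC_Os01g47600 stood against them at 13.9 FPKM in NP and 5.61 FPKM in EP (1.24).

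The large families bHLH, MYB and HB held genes with large ratios in both directions. Among 50 *bHLH* genes 18 were higher in NP and 17 were lower. LOC_Os09g28210 had 149.6 FPKM in NP and 5.51 FPKM in EP (4.64), and LOC_Os02g51320 had 1.05 FPKM in NP and 53.6 FPKM in EP (−5.13). Among 50 *MYB* genes 15 were higher and 16 were lower. LOC_Os11g47460 had 25.4 FPKM in NP and 0.719 FPKM in EP (4.41), LOC_Os01g64360 had 113 FPKM in NP and 8.96 FPKM in EP (3.59), and LOC_Os01g36460 had 0.0674 FPKM in NP and 18.2 FPKM in EP (−5.05). Of the homeobox (HB) genes LOC_Os02g43330 and LOC_Os04g45810 had 367 and 182 FPKM in NP, against 56.8 and 29.6 FPKM in EP, while LOC_Os03g07450 had 1.45 FPKM in NP and 21.0 FPKM in EP (−3.46). Of the 22 *GRAS* genes, the family of *SLR1*, 3 were higher (13.6%) and 4 were lower (18.2%). Those shares lay near the 15.9% and 14.8% over all genes. LOC_Os07g36170 of this family had 125 FPKM in NP and 18.6 FPKM in EP (2.71).

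**Figure D5:**
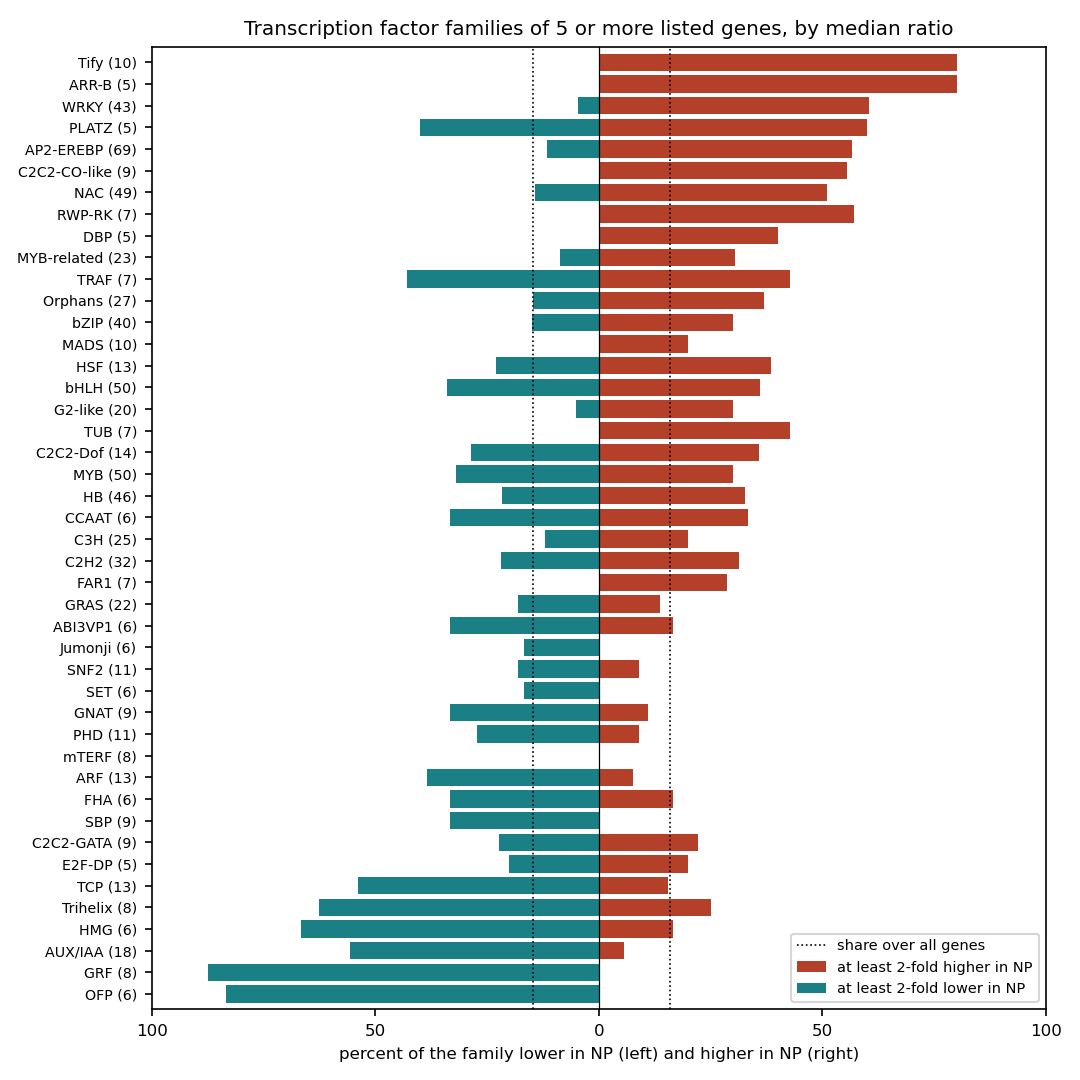
For each of the 44 transcription factor families of 5 or more listed genes, the bar to the right is the percentage of its genes at least 2-fold higher in NP (red) and the bar to the left the percentage at least 2-fold lower (teal), ordered by median log2 ratio with the number of genes in brackets. Dotted lines mark the shares over all genes, 15.9% higher and 14.8% lower; Tify is at the top and GRF and OFP are at the bottom.

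The study also matched genes of the peduncle to anther or pollen development. Of these 76 genes 25 were higher in NP by 2-fold and 50 were lower. The remaining 1, the potassium transporter gene *OsHAK1*, had 0.525 FPKM in NP and 0.153 FPKM in EP. It did not reach 2-fold with the added 0.5 FPKM. Since the study kept genes of this list for differing, the count is a description of how it was made. Their summed level was 2769 FPKM in NP and 3025 FPKM in EP, of which LOC_Os04g17100 held 889 FPKM in NP and 272 FPKM in EP, and 27 of the 76 genes were under 10 FPKM in both groups. *OsFOR1*, annotated as a polygalacturonase inhibitor gene, had 9.52 FPKM in NP and 257 FPKM in EP (−4.69). The beta-glucosidase gene *Os3bglu7* (LOC_Os03g49600) had 55.3 FPKM in NP and 510.3 FPKM in EP (−3.20), and its neighbour *Os3bglu8* (LOC_Os03g49610) had 2.76 FPKM in NP and 70.7 FPKM in EP (−4.45). The 2 are annotated as highly similar, so their separate values are uncertain. The tubulin gene *OsTUB8* had 12.8 FPKM in NP and 90.5 FPKM in EP (−2.77).

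The largest ratio downward among annotated genes at 10 FPKM or more belonged to LOC_Os06g43600, of a lipid transfer protein family, with 0.146 FPKM in NP and 35.7 FPKM in EP (−5.81). The plastocyanin-like gene LOC_Os02g43660 had 0.280 FPKM in NP and 40.8 FPKM in EP (−5.73). The aldehyde dehydrogenase gene LOC_Os04g45720 had 0.218 FPKM in NP and 36.9 FPKM in EP (−5.70), LOC_Os04g34170, annotated as a retrotransposon protein, had 0.541 FPKM in NP and 54.3 FPKM in EP (−5.72), and the *AIR12* gene LOC_Os08g41290 had 1.08 FPKM in NP and 48.5 FPKM in EP (−4.95). *OsER2*, annotated as a phytosulfokine receptor precursor gene, had 1.41 FPKM in NP and 42.3 FPKM in EP (−4.49). Among the members higher in NP, LOC_Os08g39370, annotated as a citrate transporter gene, had 357 FPKM in NP and 52.5 FPKM in EP (2.75). LOC_Os04g17100, of a heavy metal-associated domain protein, was the most abundant of the list in NP (1.71). *SPDT*, known in rice as a phosphorus distribution transporter gene of the nodes, had 31.2 FPKM in NP and 8.35 FPKM in EP (1.84), and the vacuolar sodium/proton exchanger gene *OsNHX1* had 61.6 FPKM in NP and 20.9 FPKM in EP (1.53). *OsNLA1* had 5.96 FPKM in NP and 1.93 FPKM in EP (1.41), and in Swarna it had 104 FPKM in NP and 0.701 FPKM in EP. The meiotic topoisomerase gene *OsSpo11-4* was at 2.29 FPKM in NP and 7.21 FPKM in EP. Markers of green tissue, grain and dividing cells could not be matched by name and were not analysed here. Of tissue markers that could be matched, *SUT1* of the phloem and *CESA4* and *CESA7* of the secondary wall were present in both groups, as given above.

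Of the 3040 Pokkali genes higher in NP, 2073 (68.2%) had the same call in Swarna, where 26.6% of all genes were higher. The same genes were 40.8% of those higher in Swarna NP, beside 15.9% of all genes higher in Pokkali. Of the 2827 lower genes, 2098 (74.2%) were also lower in Swarna, where 25.4% of all genes were lower. The same genes were 43.3% of those lower in Swarna NP, beside 14.8% of all genes lower in Pokkali. In 131 genes Pokkali was higher and Swarna lower, and in 65 Pokkali was lower and Swarna higher. The Swarna columns summed to 609663.3 FPKM in NP and 330513.9 FPKM in EP, further apart than the Pokkali sums. All of these shares and overlaps are for the values as deposited, and no counts after division by the column sums are given for them. No test of a difference between the cultivars was possible with 1 value per group.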

How the data were processed

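Peduncles of Pokkali and Swarna were sequenced before (EP) and after (NP) heading, 3 libraries per group. Per the labels and the study's methods, the authors filtered paired reads, aligned them with HISAT2 2.1.0 (strand-specific) to version 7 of the genome from the Rice Genome Annotation Project, assembled them with StringTie 1.3.3b, merged the assemblies and used Cufflinks tools for abundance. The authors deposited 1 FPKM value per assembled gene and group, so the 3 libraries of a group were already combined; total counts per library were not used here. FPKM corrects for length and total fragments, but the columns do not share a sum, so the most abundant genes affect all other values.

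Of 73781 rows, 62442 named a single locus. For loci with several rows the row with the highest mean of the 4 columns was used, and 19126 genes with 1 FPKM or more in any group were kept. Starts are printed counting from 1; an assembled span can be wider than the gene. Ratios are log2((NP + 0.5)/(EP + 0.5)), and 2-fold counted as a difference. limma could not be fitted, since no libraries were given. The ratio was tested on simulated data with genes set at known folds. Values were computed in pandas 2.3.3 and numpy 2.4.6 under Python 3.11.15 and drawn by matplotlib 3.10.9.

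The members and lists were chosen with earlier results of these data known, and the lists come from the study's own tables. Genes named are the 10 largest ratios per direction among annotated genes at 10 FPKM or more. In each group, up to 5 with the largest ratios, up to 3 against the direction and the most abundant ones are named, shortened where a family was long. Of the genes the study names as known for the peduncle, *SUT1*, *GA3ox2* and *OsBRI1* are given. The study also names *OsPK1*, *CYP714B1*, *D50*, *SUI1*, *BRD2* and *EBL1*, which do not appear under these names here. Some of them may be given above under other symbols, which was not checked. Other genes were added after their values were seen. No gene descriptions were matched to these loci from the reference, which is of another assembly without these identifiers, and no sequences were read. Alternatives tried were the pseudocount, the filter, summing rows of a locus and 3 scalings.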

Additional observations from a re-analysis of the deposited data

Results flagged for a closer look

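In 4 genes with a symbol in the lists, Pokkali and Swarna were each past 2-fold in opposite directions; with 1 value per group the difference between the cultivars was not tested. *INV3* (a vacuolar invertase gene) had a log2 ratio of −1.74 in Pokkali, with 15.1 FPKM in NP and 51.7 FPKM in EP, and 1.66 in Swarna, with 79.7 FPKM in NP and 24.9 FPKM in EP. *PHO1* (a starch phosphorylase gene) had a log2 ratio of 1.5 in Pokkali and −1.30 in Swarna. *TPT2* (a triose phosphate translocator gene) had a log2 ratio of 1.05 in Pokkali, with 5.09 FPKM in NP and 2.21 FPKM in EP, and −2.07 in Swarna, with 0.159 FPKM in NP and 2.27 FPKM in EP. *OsPLDα3* had a log2 ratio of −1.07 in Pokkali and 1.04 in Swarna, with 8.66 FPKM in NP and 3.95 FPKM in EP there. After division by the column sums only *PHO1* was past 2-fold in both cultivars, with 1.23 in Pokkali and −2.17 in Swarna. *INV3* came to −2.0 in Pokkali and 0.79 in Swarna, *TPT2* to 0.82 in Pokkali and −2.57 in Swarna, and *OsPLDα3* to −1.30 in Pokkali and 0.23 in Swarna.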

How the results depend on the processing

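No paired analysis was possible because the deposited columns carry no replicate, and for the same reason leaving out libraries was not run. Of 9 alternatives, dividing the columns by their sums gave a median log2 ratio of −0.14 in place of 0.05 and 39.1% of genes past 2-fold as higher in NP in place of 51.8%. A filter of 10 FPKM in NP or EP tests fewer genes and left 1743 higher and 1260 lower genes. Under it the wall list had 1 higher and 8 lower, and the transcription factor list had 163 higher and 47 lower. The lignin list had 1 higher, the hormone list 28 higher and the anther or pollen list 28 lower. The other direction of these last lists is not given, so their balance cannot be read from these counts. Of 329 single genes recomputed under 6 settings (1974 comparisons), 41 lost and 32 gained the 2-fold call and 1 was reversed: *CSLE2* came to 0.063 with the rows of its locus summed, where its used row had −1.09. Division by the sums ended 19 calls, all of genes higher in NP by little, among them *NIN1*, *DPEI*, *TPT2*, *SWEET3b*, *OsPP2C4*, *OsASB1*, *OsARF4* and *OsACS1*. It also added 11 calls, of genes that were lower in NP but short of 2-fold as deposited, among them *CESA4*, *OsDIM* and *OsPAL4*. The table gives no counts behind a value and library totals were not used here, so the precision of genes near 1 FPKM is not given.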

Other observations

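Where a gene had a further row at 1 FPKM or more in NP or EP (484 genes), 197 were past 2-fold by the row used. The further row had the same sign in 161 of these, was past 2-fold the same way in 117 and past 2-fold the other way in 11. Of 1927 assembled rows without a locus name at 1 FPKM or more, 250 were higher in NP by 2-fold (13%) and 229 were lower (11.9%). Of 1223 rows naming several loci at that level, 208 were higher in NP and 133 were lower. Over the genes named singly, 15.9% were higher and 14.8% were lower.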
